A study of Homo sapiens with 36 samples.

Results

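The genes described here encode proteins that coat lipid droplets or make and break down the triglyceride inside them. They were chosen by gene symbol, namely the perilipins PLIN2, PLIN3, PLIN4 and PLIN5, the CIDE proteins CIDEB and CIDEC, the diacylglycerol acyltransferases DGAT1 and DGAT2, and the patatin-like lipases PNPLA2 and PNPLA3. Of these 10 genes, 9 were analysed, among the 18932 genes of the count table, and CIDEB was not analysed here. All 9 passed the filter on low counts at both times. RNA-seq was done on HepG2, an established human hepatoma line, so all values describe 1 tumour line and not liver tissue. The cells received DHA (docosahexaenoic acid, 50 µM), PRO (propionate, 70 µM), PCA (protocatechuic acid, 20 µM), DHA + PRO, DHA + PCA, or vehicle alone (Ctrl), for 6 h or for 24 h. The compounds were given in medium without serum, with DHA bound to albumin, and Ctrl received the albumin, ethanol and DMSO of the treatments. Each of the 12 groups had 3 libraries, and each library was made from RNA pooled over 3 culture replicates of the same experiment. The paper describes 3 independent cell cultures, and whether all groups share them is not stated outright.

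Lipid droplets are stores of neutral lipid in a phospholipid monolayer. DGAT1 and DGAT2 add the last acyl chain of triglyceride, and PNPLA2, also called ATGL, removes the first one again. Perilipins sit on the surface and limit the access of lipases, and CIDE proteins let droplets exchange lipid and grow. In liver, PLIN2 is the perilipin that classically marks steatosis, and PNPLA3 is a droplet protein whose gene is a known target of the sterol regulatory element binding protein SREBP-1c.

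Total counts ran from 4659744 to 42326734 per library, with a median of 7034006. The deepest was replicate 2 of DHA + PRO at 24 h, at 6.22 times the median of the other libraries of its time, and all others stayed at or below 10788964. The hepatocyte markers were all expressed, with ALB at a median of 11657 RPKM. Of 8 adipocyte markers, 6 stayed under 1 RPKM in every library, FABP4 had no counts and ADIPOQ at most 3, while PPARG had a median of 10.3 RPKM. The macrophage list was carried by LYZ (median 918 RPKM) and CD68 (27.1 RPKM), with PTPRC at 2 counts or fewer and C1QA at 0. The stellate cell list was carried by ACTA2 (28.5 RPKM), and all 6 endothelial markers stayed under 1 RPKM.

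On hg19, PLIN4 (NM_001080400) lies at chr19:4502192-4517716 and PLIN5 (NM_001013706) at chr19:4522544-4535208, both on the minus strand with 4827 bp between them. PLIN3 (NM_001164194) lies farther along the same chromosome at chr19:4838346-4867780. PLIN2 (NM_001122) lies at chr9:19115759-19127604 and CIDEC (NM_001199551) at chr3:9908394-9921938, both on the minus strand. DGAT2 (NM_032564, chr11:75479778-75512581), PNPLA2 (NM_020376, chr11:818901-825571) and PNPLA3 (NM_025225, chr22:44319619-44343448) lie on the plus strand, and DGAT1 (NM_012079) on the minus strand of chromosome 8. Counts cover exons of the whole gene. The library kit did not mark strand, so reads from exons shared with an antisense gene cannot be told apart. The shared lengths given here come from the GENCODE annotation, while the counts rest on RefSeq genes. In the count table, only DGAT1 (with HSF1) and PLIN4 (with HDGFRP2) overlap another row. DGAT1 shares 137 bp of exon with HSF1, a heat shock factor on the other strand, and PLIN4 shares 17 bp with HDGFL2. PLIN3, DGAT2 and PNPLA2 share 502, 423 and 401 bp with antisense long noncoding genes. On the same strand, PNPLA3 shares 148 bp with SAMM50, DGAT1 shares 444 bp with the long noncoding gene ENSG00000254690, whose level was not analysed here, and PLIN5 shares 1047 bp with the annotated gene ENSG00000267385, so the low PLIN5 counts are uncertain.

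Expressed in RPKM, that is as reads scaled to library size and counted length, PLIN2 was the most abundant of the 9 genes. In Ctrl at 6 h its level was 79.1 ± 2.78 RPKM (SD, n = 3). A middle group followed with PLIN3 at 43.6 ± 2.34, PNPLA2 at 42.7 ± 4.42 and DGAT1 at 41.1 ± 3.06 RPKM, whose libraries overlapped in that order. DGAT2 came next at 34.6 ± 3.55 RPKM, below every library of DGAT1. PNPLA3 (7.32 ± 1.45 RPKM) and CIDEC (5.58 ± 1.05 RPKM) overlapped each other and lay well below. PLIN5 (1.00 ± 0.344 RPKM) and PLIN4 (0.862 ± 0.448 RPKM) were lowest and also overlapped.

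**Figure D1:**
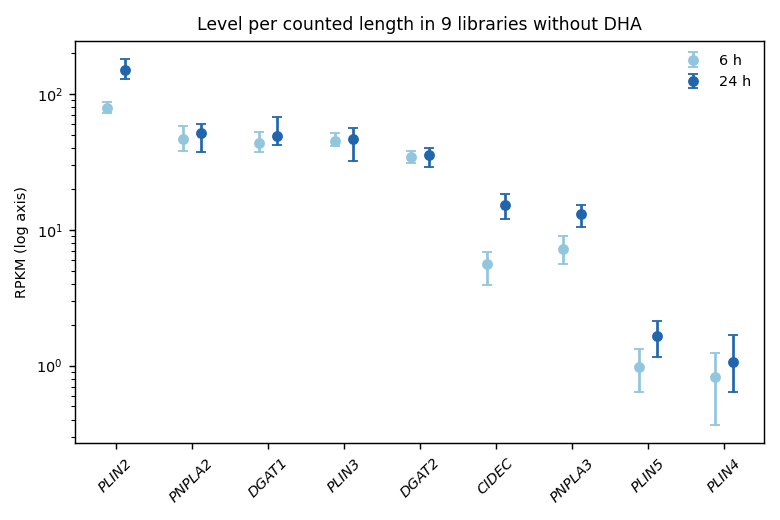
Level per counted length (RPKM, log axis) of each gene in the 9 libraries without DHA at 6 h and the 9 at 24 h. Points are means and bars run from the lowest to the highest library. PLIN2 lies above all other genes at both times, and PLIN4 and PLIN5 lie lowest.

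At 24 h the order of Ctrl levels changed little. PLIN2 reached 162 ± 6.24 RPKM, while PNPLA2 (50.9 ± 3.60), DGAT1 (48.5 ± 3.18) and PLIN3 (47.0 ± 9.02 RPKM) overlapped, and DGAT2 (35.6 ± 2.41 RPKM) overlapped PLIN3. CIDEC (15.7 ± 2.17 RPKM) and PNPLA3 (13.6 ± 2.03 RPKM) overlapped with CIDEC now ahead, and PLIN5 (1.57 ± 0.504 RPKM) and PLIN4 (1.07 ± 0.151 RPKM) again closed the order. Within the summed RPKM of the 4 perilipins and over the 9 libraries without DHA, PLIN2 held a mean of 62.6% at 6 h (60.9 to 65.0%) and of 75.4% at 24 h (71.4 to 79.5%). The share of PLIN3, the widely expressed perilipin that also resides in the cytosol, was 35.9% and 23.3% in the same libraries.

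**Figure D2:**
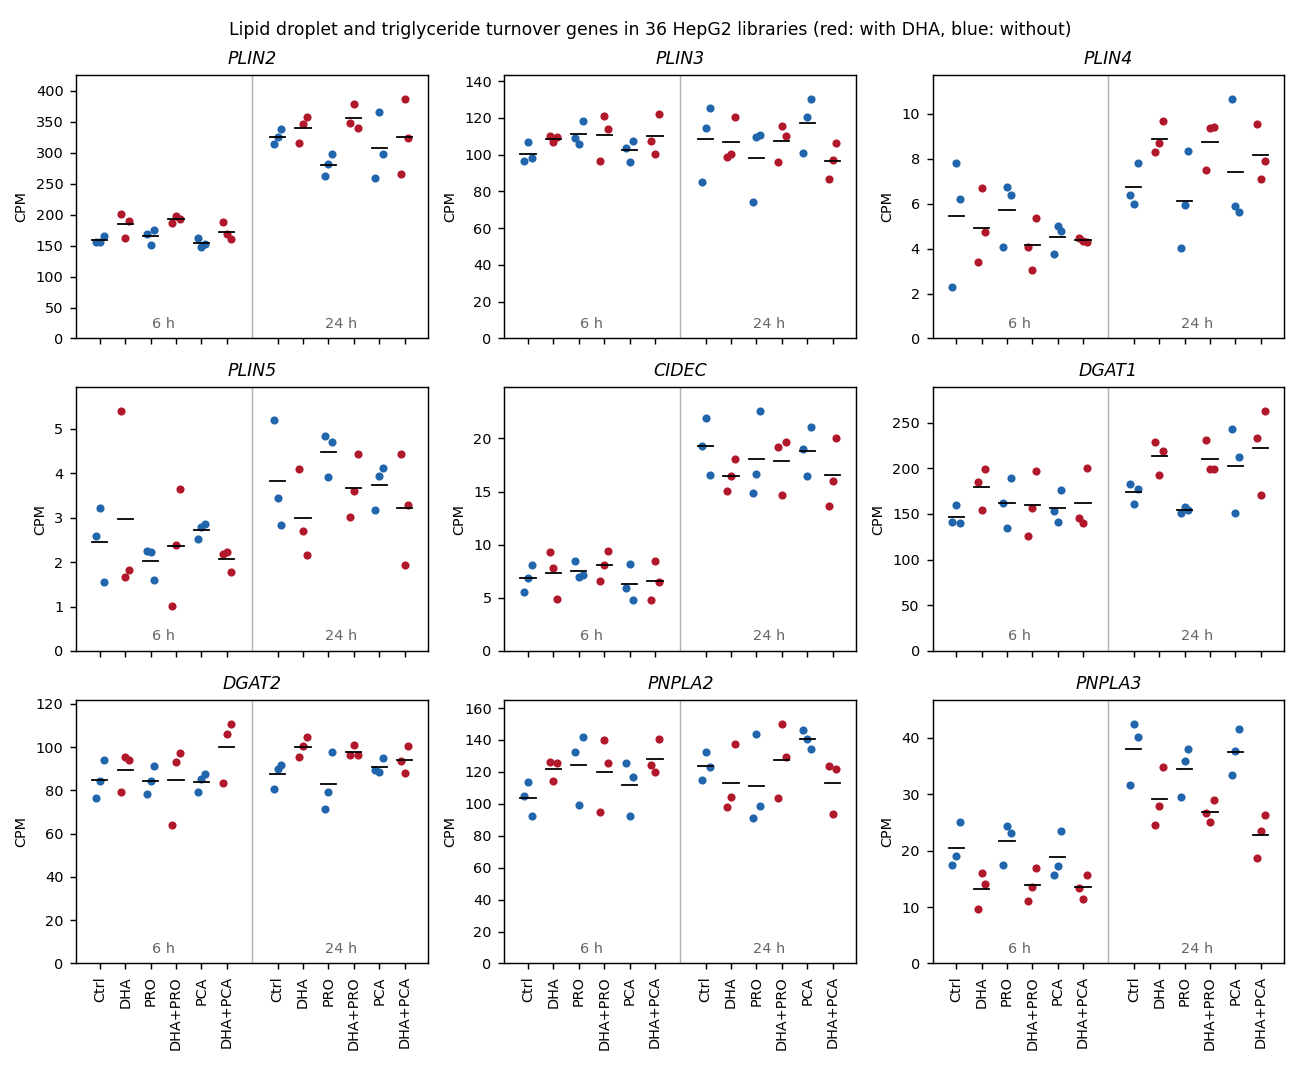
Counts scaled to library size (CPM) of the 9 genes in each of the 36 libraries, by group and time, with red points for groups with DHA, blue points for groups without and a black line at the mean of each group. PNPLA3 lies lower with DHA at both times, and PLIN2, CIDEC and PNPLA3 lie higher at 24 h than at 6 h.

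The first question was how DHA altered these genes after 24 h. The 9 libraries with DHA (DHA, DHA + PRO, DHA + PCA) were compared with their 9 counterparts (Ctrl, PRO, PCA) as the mean of the 3 differences. PNPLA3 fell, DGAT1 and DGAT2 had estimates above 0 that did not pass the main test, and the perilipins, CIDEC and PNPLA2 were not called. The main test used no block of replicate numbers, and with that block DGAT1 passed (edgeR adjusted p = 0.00544). A gene was called at an adjusted p of at most 0.05 in edgeR's quasi-likelihood test with an average log2 CPM above 0. Of the 9 genes 1 was called, which is lower, against 1.23% of the 11893 genes tested and 0.942% lower. The median log2 fold change of the 9 was -0.06, and that of all genes tested was 0.01. The libraries are bulk RNA of a single cell line, where less RNA per cell and fewer expressing cells cannot be told apart.

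PNPLA3 had 31.7, 42.6 and 40.1 CPM in Ctrl, 29.6, 35.8 and 38.1 CPM in PRO and 33.4, 37.8 and 41.6 CPM in PCA. With DHA it had 24.6, 27.9 and 34.8 CPM, with DHA + PRO 26.7, 25.1 and 28.9 CPM, and with DHA + PCA 18.8, 23.5 and 26.3 CPM. All 3 libraries lay below their counterparts with DHA + PRO and with DHA + PCA, while the highest DHA library lay above the lowest of Ctrl. The pooled change was -0.49 on the log2 scale (SE 0.0881), or 1.40-fold lower, with an edgeR adjusted p of 0.00209. PNPLA3 ranked 63rd of the 11893 genes by p. The exact permutation test of DHA labels within each background gave p = 0.00075, where 0.00025 is the smallest it can give, and 0.0691 after adjustment over all genes. SAMM50 shares exon sequence with PNPLA3 in the GENCODE annotation, but their rows of the count table do not overlap. It had a log2 fold change of 0.03 (SE 0.0666) in the same comparison.

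Genes that mark cell types in tissue were read in these HepG2 cultures beside this result at 24 h. The summed stellate cell list ran from 24.0 to 42.8 RPKM without DHA and from 35.9 to 50.5 RPKM with it, where ACTA2 had a log2 fold change of 0.25 (SE 0.0943) that was not called and PDGFRB fell by 0.46 on the log2 scale. LYZ fell by 0.28 and the hepatocyte marker TF by 0.20, and the macrophage list summed to 1170 to 1709 RPKM without and 1051 to 1356 RPKM with DHA. Their part in the result was not tested. COL1A1, COL1A2 and COL3A1 each stayed at 75 counts or fewer in every library. The adipocyte list summed to 11.1 to 15.9 RPKM without DHA and 11.7 to 16.3 RPKM with it. Titles of the libraries fall into an earlier and a later number series. Within them the PNPLA3 difference at 24 h was -0.52 (12 libraries) and -0.42 (6 libraries) in log2 CPM.

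Of the acyltransferases, DGAT1, an enzyme of the endoplasmic reticulum, had 182, 161 and 178 CPM in Ctrl, 151, 158 and 154 CPM in PRO and 243, 151 and 212 CPM in PCA. It had 229, 193 and 219 CPM with DHA, 231, 199 and 199 CPM with DHA + PRO and 233, 171 and 263 CPM with DHA + PCA. The DHA libraries all lay above Ctrl and the DHA + PRO libraries all above PRO, as for 4.63% and 5.34% of all genes, and the PCA groups overlapped. The pooled log2 fold change was 0.29 (SE 0.0814), and its edgeR adjusted p of 0.0859 missed the threshold. The DESeq2 Wald test gave 0.0398, edgeR with a block of replicate numbers 0.00544, and all alternatives 0.00265 to 0.221. The exact permutation p was 0.01375, or 0.281 adjusted over all genes. HSF1, which overlaps DGAT1 on the other strand, had a log2 fold change of 0.08 (SE 0.0772). DGAT2, the acyltransferase that also works at the droplet surface, ran from 71.4 to 97.6 CPM without DHA (median 89.6) and from 88.3 to 105 CPM with it (median 96.5). Its log2 fold change was 0.17 (SE 0.0577, edgeR adjusted p = 0.240).

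Among the perilipins at 24 h, PLIN2 ran from 259 to 365 CPM without DHA (median 298) and from 266 to 387 CPM with it (median 347). Its log2 fold change was 0.16 (SE 0.0667, 95% interval 0.03 to 0.30, edgeR adjusted p = 0.356). Group means were 326 CPM in Ctrl and 340 with DHA, and 280 in PRO and 355 with DHA + PRO. In PCA the mean was 307 and with DHA + PCA 325 CPM. The PLIN2 effect of DHA with PRO minus that without was not called (edgeR adjusted p = 0.955). Only the DHA + PRO libraries lay wholly above their counterparts, as for 5.34% of all genes. PLIN4, a perilipin best known from adipose tissue, had a log2 fold change of 0.37 (SE 0.145, edgeR adjusted p = 0.321) on 4.03 to 10.7 CPM without and 7.09 to 9.68 CPM with DHA. PLIN5, which tethers droplets to mitochondria in oxidative tissues, had -0.29 (SE 0.179, 95% interval -0.66 to 0.08), and PLIN3 had -0.06 (SE 0.0851, 95% interval -0.23 to 0.12). CIDEC had -0.15 (SE 0.104, 95% interval -0.36 to 0.07) and PNPLA2 had -0.07 (SE 0.0899, 95% interval -0.26 to 0.11). Without adjustment, 5 of the 9 genes had an edgeR p under 0.05, namely PLIN2, PLIN4, DGAT1, DGAT2 and PNPLA3, against 9.88% of all genes tested.

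At 6 h the same comparison, without a replicate block, called 0 of the 9 genes, against 0.202% of the 11872 tested. Of the 9 genes, 2 had an unadjusted edgeR p under 0.05, against 2.88%. PNPLA3 had the lowest p of the 9. It had 17.4, 19.02 and 25.2 CPM in Ctrl, 17.4, 24.4 and 23.1 CPM in PRO and 15.7, 17.4 and 23.5 CPM in PCA. It had 9.73, 16.05 and 14.0 CPM with DHA, 11.1, 13.5 and 16.9 CPM with DHA + PRO and 13.5, 11.5 and 15.7 CPM with DHA + PCA. Each DHA group lay wholly below its counterpart. The log2 fold change was -0.59 (SE 0.128), or 1.51-fold, with an edgeR adjusted p of 0.0669. The DESeq2 Wald test gave an adjusted p of 0.00363 and edgeR with a block of replicate numbers 0.000942. Over all alternatives the adjusted p ran from 0.000942 to 0.217. The exact permutation p was 0.00025, the smallest it can give, and 0.141 adjusted over all genes. Within the earlier series of libraries the log2 CPM difference was -0.60 and within the later series -0.67.

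PLIN2 ran from 147 to 175 CPM without DHA at 6 h (median 156) and from 160 to 200 CPM with it (median 187). Its log2 fold change was 0.19 (SE 0.0563, edgeR adjusted p = 0.565), with 0.21 in the earlier and 0.14 in the later series. The exact permutation p was 0.001, or 0.258 adjusted over all genes. The other 7 genes had log2 fold changes between -0.22 (PLIN4) and 0.12 (PNPLA2) with edgeR adjusted p of 0.9995 each. The change of the DHA effect from 6 h to 24 h was called for 0 of the 9 genes, as for 0 of all 12046 genes tested (0%) in the joint fit, and for 0 of the 9 by the DESeq2 Wald test. For PNPLA3 it was 0.10 (95% interval -0.22 to 0.42), and for PLIN4, the only gene of the 9 with an unadjusted edgeR p under 0.05 (3.05% of all genes), it was 0.58 (SE 0.259, 95% interval 0.06 to 1.11).

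**Figure D3:**
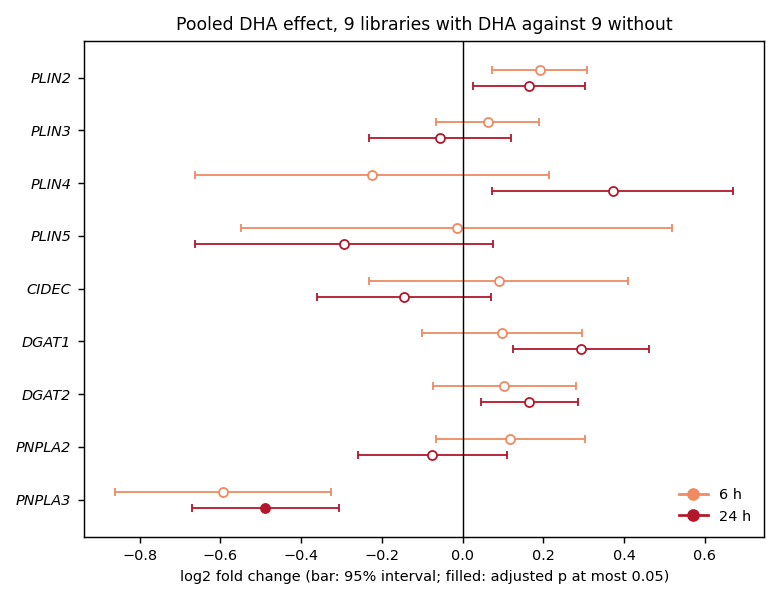
Log2 fold change of each gene with DHA, pooled over the Ctrl, PRO and PCA backgrounds, at 6 h and at 24 h, with 9 libraries against 9. Bars are 95% intervals and filled points passed an edgeR adjusted p of 0.05, which PNPLA3 did at 24 h.

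The study also asked whether PRO or PCA altered the response to DHA. These comparisons rest on 3 libraries against 3, and those against Ctrl share the Ctrl libraries. At 24 h PNPLA3 had a log2 fold change of -0.39 (SE 0.152, edgeR adjusted p = 0.733) with DHA against Ctrl and of -0.36 (SE 0.150, adjusted p = 0.456) with DHA + PRO against PRO. With DHA + PCA against PCA it fell by 0.72 on the log2 scale (SE 0.157, edgeR adjusted p = 0.0463), or 1.65-fold, and with DHA + PCA against Ctrl it fell by 0.73 (SE 0.156, edgeR adjusted p = 0.0345). Of the 9 genes 1 was thus called in each of these last comparisons, against 0.277% and 0.286% of all genes. DHA against Ctrl called 0 of 9 (0.193% of all genes), DHA + PRO against PRO 0 of 9 (0.227%) and DHA + PRO against Ctrl 0 of 9 (0.395%). At an unadjusted edgeR p under 0.05 these 3 comparisons held 2, 5 and 1 of the 9, against 5.95%, 9.6% and 8% of all genes. The DESeq2 Wald test also called 0 of 9 in these 3. The call with DHA + PCA against PCA was lost when any of 13 single libraries of the 18 was left out, and that against Ctrl, which rests on the same DHA + PCA libraries, when any of 4 was.

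The differences between backgrounds were tested directly. The PNPLA3 effect of DHA with PCA minus that without was -0.33 (95% interval -0.78 to 0.12), and with PRO minus without it was 0.03 (95% interval -0.41 to 0.47). No difference between backgrounds was called for any of the 9 genes at either time, as for 0% of all genes tested. An unadjusted edgeR p under 0.05 at 24 h was found for 0 of the 9 genes in both tests. Of all genes tested, 595 (PRO, 5%) and 210 (PCA, 1.77%) had one. At 6 h PNPLA3 had -0.63 (SE 0.221) with DHA against Ctrl, -0.67 (SE 0.224) on PRO and -0.48 (SE 0.220) on PCA. At 6 h 0 of the 9 genes were called by edgeR in each comparison with DHA, as were 0.0168% of all genes for DHA, DHA + PRO and DHA + PCA against Ctrl, 0.00842% for DHA + PRO against PRO and 0.0253% for DHA + PCA against PCA. DHA libraries of PNPLA3 lay wholly below their counterparts in 5 of these 6 comparisons. The share of all genes that did so was 4.56% (Ctrl), 2% (PRO) and 4.03% (PCA) at 6 h, and 6.1%, 7.6% and 7.37% at 24 h. For DGAT1 the values at 24 h were 0.30 (SE 0.141) on Ctrl, 0.44 (SE 0.141) on PRO and 0.14 (SE 0.141) on PCA, and the lowest edgeR adjusted p was 0.339.

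**Figure D4:**
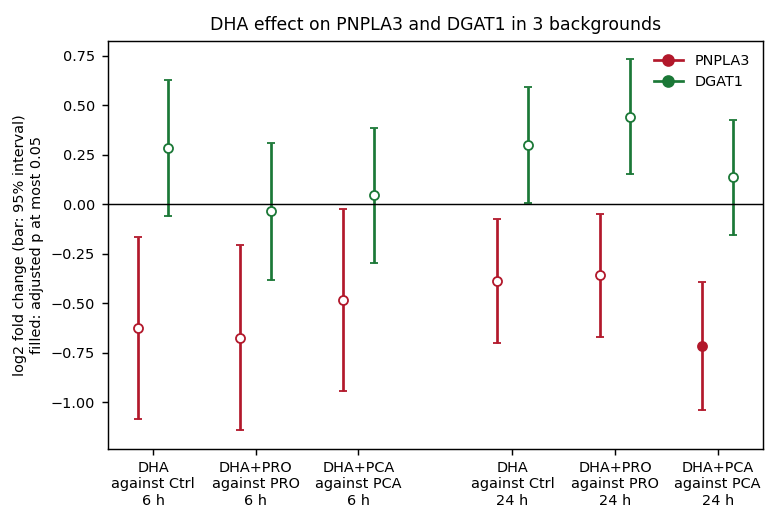
Log2 fold change of PNPLA3 and DGAT1 with DHA in cells that received vehicle, PRO or PCA, at 6 h and 24 h, 3 libraries against 3. Bars are 95% intervals and filled points passed an edgeR adjusted p of 0.05. PNPLA3 lies below 0 in all 6 comparisons.

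PRO and PCA alone were compared with Ctrl at both times. Of the 9 genes 0 were called by edgeR in each of the 4 comparisons, as were 0% of all genes tested, and 0 of the 9 had an unadjusted p under 0.05 in any of them. That share of all genes was 6.02% for PRO and 3.82% for PCA at 24 h, and 1.65% and 0.724% at 6 h. The DESeq2 Wald test also called 0 of the 9. The lowest edgeR p was that of PLIN2 with PRO at 24 h, with 262, 282 and 297 CPM against 314, 325 and 339 CPM in Ctrl. These libraries did not overlap, as for 3.72% of all genes that were lower in every PRO library, and the edgeR adjusted p was 0.826. Pooled over cells with and without DHA, PRO and PCA called 0 of the 9 genes at each time, and 0.00841% of all genes for PRO at 24 h.

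The promoter sequences of PLIN2, PLIN5 and CIDEC are shown because these genes, with PNPLA3, were higher at 24 h than at 6 h in the comparison that follows, and those of PLIN3 and PNPLA2 because they were not called there. They come from RefSeq on GRCh38.p14 and span 250 bases before to 50 bases after the start site, on the plus strand for PNPLA2 and on the minus strand for the others. Sequences were matched by symbol for 6 of the 9 genes. None was matched for PNPLA3, DGAT1 or DGAT2, so the motif search did not cover these. The windows are chr9:19127443-19127742 (PLIN2), chr19:4535175-4535474 (PLIN5), chr3:9878763-9879062 and chr3:9880204-9880503 (CIDEC, with 2 start sites), chr19:4867618-4867917 (PLIN3) and chr11:818664-818963 (PNPLA2). Capitals mark matches, on either strand, to any of 5 motifs searched, whose letters stand after the sequences.
PLIN2: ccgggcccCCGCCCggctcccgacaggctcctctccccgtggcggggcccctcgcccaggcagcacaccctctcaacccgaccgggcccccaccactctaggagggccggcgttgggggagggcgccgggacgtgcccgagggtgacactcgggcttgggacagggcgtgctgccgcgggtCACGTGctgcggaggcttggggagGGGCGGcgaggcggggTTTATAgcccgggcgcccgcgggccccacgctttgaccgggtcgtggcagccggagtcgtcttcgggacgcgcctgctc
PLIN5: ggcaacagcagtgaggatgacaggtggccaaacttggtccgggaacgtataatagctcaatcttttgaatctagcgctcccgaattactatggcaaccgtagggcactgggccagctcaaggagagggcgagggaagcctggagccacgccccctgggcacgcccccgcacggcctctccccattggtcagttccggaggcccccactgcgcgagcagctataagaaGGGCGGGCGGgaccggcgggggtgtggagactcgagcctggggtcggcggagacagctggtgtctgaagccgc
CIDEC start 1: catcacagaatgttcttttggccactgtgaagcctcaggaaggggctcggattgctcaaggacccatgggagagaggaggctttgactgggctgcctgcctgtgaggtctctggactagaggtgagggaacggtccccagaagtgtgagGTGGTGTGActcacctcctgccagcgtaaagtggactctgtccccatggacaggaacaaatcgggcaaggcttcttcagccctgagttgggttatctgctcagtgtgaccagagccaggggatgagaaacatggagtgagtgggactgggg
CIDEC start 2: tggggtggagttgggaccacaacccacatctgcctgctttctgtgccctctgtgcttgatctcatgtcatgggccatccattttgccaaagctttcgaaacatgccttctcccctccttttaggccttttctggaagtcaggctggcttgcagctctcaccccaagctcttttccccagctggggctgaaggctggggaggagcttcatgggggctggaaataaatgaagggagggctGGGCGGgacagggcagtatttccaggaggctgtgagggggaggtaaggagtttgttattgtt
PLIN3: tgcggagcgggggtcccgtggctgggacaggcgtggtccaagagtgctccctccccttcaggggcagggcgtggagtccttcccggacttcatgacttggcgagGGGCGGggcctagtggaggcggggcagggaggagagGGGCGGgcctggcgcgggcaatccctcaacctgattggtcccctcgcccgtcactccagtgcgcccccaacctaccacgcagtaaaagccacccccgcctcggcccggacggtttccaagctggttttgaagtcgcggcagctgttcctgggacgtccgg
PNPLA2: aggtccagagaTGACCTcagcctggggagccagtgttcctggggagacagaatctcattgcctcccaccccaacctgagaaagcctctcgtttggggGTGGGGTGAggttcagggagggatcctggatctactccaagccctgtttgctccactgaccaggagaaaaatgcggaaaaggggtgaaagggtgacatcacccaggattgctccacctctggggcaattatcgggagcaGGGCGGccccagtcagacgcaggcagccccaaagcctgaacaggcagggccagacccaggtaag

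Of all 35116 promoter windows of the same length, 7.26% held the E-box CACGTG and 1.13% the sterol regulatory element TCACNCCAC. The TATA box TATAAA was in 11.5%, the nuclear receptor half-site AGGTCA in 13.8% and the GC box GGGCGG in 44.95%. PLIN2 had CACGTG 69 bases before the start, the reverse complement of TATAAA 29 bases before it and GC boxes 242 and 45 bases before it. Its window was 76.7% G and C, against a median of 58.7% over all windows. CIDEC lies on the minus strand, so the first of its sequences above belongs to the downstream start. It had the reverse complement of TCACNCCAC 101 bases before that start and a GC box 12 bases before the upstream one. PLIN5 had overlapping GC boxes 23 and 19 bases before its start, and PLIN3 had GC boxes 146 and 110 bases before it. PNPLA2, not called with time or DHA, also had the reverse complement of TCACNCCAC, 153 bases before its start, with that of AGGTCA 239 bases and a GC box 14 bases before it. The PLIN4 window held none of the 5 motifs.

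CIDEC, PLIN2, PNPLA3 and PLIN5 rose between 6 h and 24 h in culture. Over Ctrl, PRO and PCA, 9 libraries of 24 h were compared with 9 of 6 h in the joint fit of all 36 libraries. Of the 9 genes 4 rose and 0 fell, against 24.3% of the 12046 genes tested that rose and 48.4% called either way, so the share called among the 9 was near that of all genes. The median log2 fold change of the 9 was 0.37, beside -0.01 over all genes tested. Time of treatment, time without serum and time of harvest cannot be told apart here.

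CIDEC, the droplet fusion protein also known as FSP27, ran from 4.81 to 8.44 CPM at 6 h (median 6.95) and from 14.9 to 22.6 CPM at 24 h (median 19.03). The groups did not overlap. The log2 fold change was 1.45 (SE 0.129, edgeR adjusted p = 3.01e-11), or 2.73-fold. PLIN2 ran from 147 to 175 CPM at 6 h (median 156) and from 259 to 365 CPM at 24 h (median 298), also without overlap. It rose by 0.93 on the log2 scale (SE 0.0648, edgeR adjusted p = 6.68e-14), or 1.91-fold.

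PNPLA3 ran from 15.7 to 25.2 CPM at 6 h (median 19.02) and from 29.6 to 42.6 CPM at 24 h (median 37.8), and its log2 fold change was 0.86 (SE 0.109, edgeR adjusted p = 5.78e-08). PLIN5 ran from 1.55 to 3.22 CPM at 6 h (median 2.51) and from 2.83 to 5.20 CPM at 24 h (median 3.93), with a log2 fold change of 0.72 (SE 0.217, edgeR adjusted p = 0.00662). PNPLA3 did not overlap between times, and PLIN5 did. Thus 3 of the 9 genes had all libraries of 24 h above all of 6 h, against 6.77% of all genes. The exact permutation p was 0.00025, the smallest it can give, for CIDEC, PLIN2 and PNPLA3, and 0.001 for PLIN5, or at most 0.0042 for these 4 after adjustment over all genes.

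The other 5 genes were not called. The log2 fold change was 0.37 (SE 0.183, edgeR adjusted p = 0.0940) for PLIN4 and 0.18 (SE 0.0939, edgeR adjusted p = 0.116) for DGAT1. PNPLA2 had 0.14 (95% interval -0.05 to 0.33), PLIN3 0.04 (95% interval -0.11 to 0.20) and DGAT2 0.04 (95% interval -0.10 to 0.19). Within the earlier and later series the log2 CPM difference was 0.93 and 0.92 for PLIN2, 1.34 and 1.57 for CIDEC, 0.92 and 0.73 for PNPLA3 and 0.60 and 0.90 for PLIN5. The summed adipocyte list also went from 7.93 to 10.6 RPKM at 6 h to 11.1 to 15.9 RPKM at 24 h, and the macrophage list from 566 to 809 RPKM to 1170 to 1709 RPKM, the latter set by LYZ. The hepatocyte list summed to 24975 to 28354 RPKM at 6 h and, without overlap, to 31684 to 35187 RPKM at 24 h, with 6 of its 10 genes called higher and 2 lower. Of 5 stellate cell markers tested, ACTA2 (0.53) and PDGFRB (0.88) were called higher, and the list summed to 22.5 to 29.01 RPKM at 6 h and 24.0 to 42.8 RPKM at 24 h. Their part in the result was not tested, and the defining markers FABP4, C1QA and PTPRC were at or near 0 throughout.

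**Figure D5:**
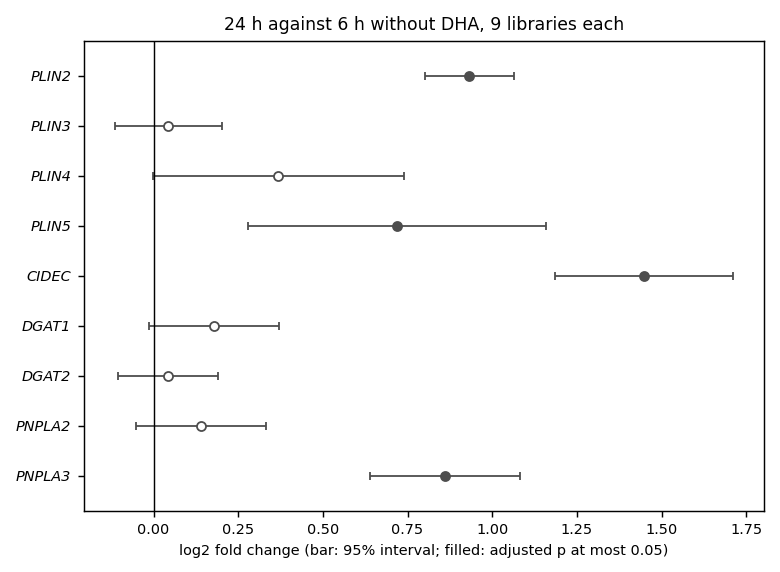
Log2 fold change of each gene between 24 h and 6 h in cells without DHA, 9 libraries against 9. Bars are 95% intervals and filled points passed an edgeR adjusted p of 0.05, which CIDEC, PLIN2, PNPLA3 and PLIN5 did.

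The balance of the lipases followed from these values. PNPLA2 RPKM divided by PNPLA3 RPKM had a mean of 6.65 at 6 h without DHA (range 4.24 to 9.23, n = 9) and of 10.8 with DHA (8.21 to 14.99). At 24 h it was 3.96 without DHA (2.99 to 5.07) and 5.29 with DHA (4.31 to 7.61). The ratio was thus highest with DHA at 6 h and lowest without DHA at 24 h, and the groups with and without DHA overlapped at both times. DGAT1 divided by DGAT2 varied less, with means of 1.26 and 1.27 at 6 h and of 1.40 and 1.52 at 24 h without and with DHA.

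Other genes of lipid droplets and triglyceride were read from lists. Of 21 other lipid droplet genes tested at 24 h, 5 fell with DHA and 0 rose, beside 0.942% of all genes that fell and 0.286% that rose. The same shares stand beside the other lists at 24 h. They were LSS (-0.70, SE 0.104), a sterol synthesis enzyme, ACSL3 (-0.51, SE 0.0596), which activates fatty acids at the nascent droplet, HSD17B7 (-0.45, SE 0.0665) and NSDHL (-0.36, SE 0.0720), both sterol enzymes, and METTL7A (-0.24, SE 0.0609). The median log2 fold change of the 21 was -0.01. PLIN1, the adipocyte perilipin and the only one of PLIN1 and CIDEA that passed the filter, was not called (0.04, SE 0.258). Of 15 genes of earlier triglyceride synthesis and sterol esterification 1 fell, namely LPIN1 (-0.55, SE 0.0674), which makes diacylglycerol, and of 8 other triglyceride hydrolysis genes 1 fell, the lysosomal lipase LIPA (-0.25, SE 0.0619).

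Of 15 textbook SREBP targets all 15 fell with DHA at 24 h, with a median of -0.55, including SCD (-0.70, SE 0.0430), which makes monounsaturated fatty acids, and ACSS2 (-0.76, SE 0.0476), which makes acetyl-CoA from acetate. Of 11 textbook PPAR targets, 0 rose and FABP1 fell (-0.41, SE 0.0570). Of 14 transcription factors of lipid genes SREBF1 (-0.68, SE 0.0933) and SREBF2 (-0.23, SE 0.0572) fell, and CREB3L3 (0.63, SE 0.104) rose. At 6 h the DHA comparison called 2 of 22 other droplet genes, ACSL3 (-0.36) and HSD17B7 (-0.56), and 7 of 15 SREBP targets, all lower, beside 0.152% of all genes called lower, with SREBF1 at -0.63. The 8 hydrolysis genes, 14 genes of earlier synthesis and 11 PPAR targets had no call at that time.

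With time in culture, all 15 SREBP targets tested rose, with a median of 0.85, and PLIN1 rose by 1.47 on the log2 scale (SE 0.329). Over all genes 24.3% rose and 24.1% fell. Of 22 other droplet genes 8 rose and 5 fell. Among them FITM1, which helps droplets form, had 1.13 (SE 0.197), LSS 1.15 (SE 0.120) and METTL7A -0.50 (SE 0.0723). Of 15 genes of earlier synthesis and esterification 4 rose and 4 fell, led by SOAT2 (1.75, SE 0.0903), the sterol acyltransferase of hepatocytes, and MOGAT3 (1.43, SE 0.0931). Of 8 hydrolysis genes LIPA (0.54) and PNPLA4 (0.44) rose and 4 fell, among them AADAC (-1.59) and CES1 (-0.50). Of 11 PPAR targets 4 rose and 1 fell, with FABP1 at 2.00 (SE 0.115), and of 14 transcription factors 7 rose and 2 fell. The values of these lists share their libraries with the 9 genes.

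Over the 12 groups, the log2 CPM means most like those of PNPLA3 among the 12045 other genes belonged to P2RY8 (Pearson r = 0.985). These 12 group means share libraries, depth and the split by time, and r is given as a description.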

How the data were processed

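The authors aligned reads of TruSeq libraries from a HiSeq 1500 to hg19 with STAR and counted them per RefSeq gene with the iRNA-seq pipeline, and the deposited values are these raw counts. The counted length in the deposited table (an other unit, in bp) served only for RPKM. Starts count from 0 there, and 1 was added. All 36 libraries were used and none of the 630 pairs came close to a repeated library (smallest chi-square of 2 libraries, divided by its degrees of freedom, 1.89).

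Tests were run with edgeR 4.0.16 in R 4.3.3 (filterByExpr, TMM, quasi-likelihood F test, Benjamini-Hochberg over all genes tested), with 18 libraries per time and all 36 in the joint fit. CPM used TMM-scaled library sizes and log2 CPM a prior count of 2. P-values measure the spread between libraries within groups. If libraries of the same replicate number share an experiment, the libraries compared, also those of 6 h and 24 h, are not all independent experiments. The edgeR script was tested on simulated data. Alternatives included DESeq2 1.42.0. Plots used matplotlib 3.10.9 (Python 3.11.15).

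The 9 genes, lists and tests were chosen with earlier results of these data known. Named were these genes, listed genes called in the pooled DHA or time comparison (at most 6 a list by p) and the genes most like PNPLA3. Some genes these rules name are not reported here. The one-way ANOVA in the study's methods was not repeated.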

Additional observations from a re-analysis of the deposited data

How the results depend on the processing

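The PNPLA3 fall with DHA at 24 h was called in all 27 alternative edgeR or DESeq2 fits, with log2 fold changes from -0.54 to -0.45, but not by the exact permutation test adjusted over all genes (0.0691), which called 74 genes there. The rises of PLIN2, CIDEC, PNPLA3 and PLIN5 with time were called in all 45 fits. Other calls depended on the setting, and the cause was not tested. With DHA at 24 h, DGAT1 was called beside PNPLA3, so 2 genes of the 9, under the DESeq2 Wald test (adjusted p = 0.0398), with no filter on low counts (0.00265) and with a replicate block (0.00544). Over all alternatives its adjusted p ran from 0.00265 to 0.221. With DHA at 6 h, PNPLA3 and thus 1 gene was called under the Wald test (0.00363), no filter (0.0152), the replicate block (0.000942), a block of library series (0.00397) and the joint fit of 36 libraries (0.00707), and the range was 0.000942 to 0.217. For DHA + PCA against Ctrl at 24 h, 0 genes were called under the Wald test and the joint fit, and against PCA 0 under upper quartile scaling and the joint fit. For DHA + PRO against PRO at 24 h, 1 gene was called with no filter and 2 with the replicate block, and against Ctrl 1 with the replicate block.

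Leaving out 1 library at a time gave 1 to 2 genes with DHA at 24 h, where 2 came without PCA replicate 1 or DHA + PCA replicate 2. It gave 0 to 1 for DHA + PCA against Ctrl, with 0 without Ctrl replicate 2 or 3 or DHA + PCA replicate 1 or 2. For DHA + PCA against PCA it gave 0 to 1, with 0 without Ctrl replicate 2 or 3, DHA replicate 2, PRO replicate 3, or any library of PCA, DHA + PRO or DHA + PCA. Without Ctrl replicate 2 at 6 h or PRO replicate 1 at 24 h, PLIN4 was called with time (0.0213 and 0.0408), and without PCA replicate 2 at 24 h DGAT1 was (0.0332).

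Signs turned for values that were not called. PLIN5 with DHA at 6 h went to 0.0036 with the library series block and, leaving out 1 library (range -0.28 to 0.132), to 0.0116, 0.0128, 0.0168, 0.0582, 0.0694, 0.0864 or 0.132. Without 1 library, PNPLA2 with DHA at 24 h went to 0.0021 (range -0.13 to 0.0021), DGAT2 with time to -0.0026 (to 0.0749), the change of the DHA effect of DGAT2 to -0.0039 (to 0.0988) and that of PLIN2 to 0.01211 or 0.0069 (from -0.0832).

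Samples share replicate numbers, and the headers of the count columns repeat the same culture numbers in every group. The paper describes 3 independent cell cultures, but no source used here says outright that a number marks 1 experiment across groups. Residuals correlated above 0.1 in 34 of 45 same-number pairs at 24 h and 36 of 45 at 6 h (mean r 0.153 and 0.256), against 5 and 12 of 90 other pairs, and 17 and 16 of 18 libraries lay closest to their own number. As pairing is not stated, the main tests used no block and leave this shared variation in their error, though most same-number pairs correlated. With the replicate block the edgeR adjusted p with DHA was 0.00544 for DGAT1 at 24 h, against 0.0859 without it. For PNPLA3 at 6 h it was 0.000942 against 0.0669. Whether these genes were called thus depended on this choice. The replicate block also called PLIN4 (adjusted p = 0.0371) and DGAT1 (0.0292) with time in culture. PLIN4 and PLIN5, at 9 to 391 counts a library, are limited by depth.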
